A study of Mus musculus with 6 samples.

Results

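The expression of 10 transcription factor genes that are used as marks of embryonic origin was followed through the adult mouse aorta: Twist1, Sox9, Scx, Tcf21, Tbx18, Wt1, Hand2, Dlx5, Dlx6 and Foxf1. They are 10 of the 31055 features in the deposited count matrix and were found by their gene symbols, each of which matched 1 row. Their transcripts were counted in the 24972 of 30716 cell barcodes whose gene number lay between 1000 and 5000, whose unique molecular identifiers (UMIs, each standing for 1 captured transcript) numbered between 1500 and 25000, and of whose UMIs under 20% were mitochondrial. In these cells Tcf21 had 37654 UMIs, Sox9 19845, Hand2 16481, Twist1 13715, Scx 5717, Tbx18 5413, Foxf1 2727, Dlx5 1041, Dlx6 525 and Wt1 116.

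The cells of the aortic root and ascending aorta have several embryonic sources, chiefly the cardiac neural crest and the second heart field, with fibroblasts also coming from the epicardium. Twist1, Scx, Tcf21 and Hand2 are basic helix-loop-helix (bHLH) factors, which bind the E-box CANNTG as dimers. Twist1 acts in mesenchyme and in the transition from epithelium to mesenchyme, Scx in tendon and valve progenitors, Tcf21 in fibroblasts of epicardial origin, and Hand2 in the second heart field and the neural crest. Sox9 directs cartilage formation and also acts in heart valve mesenchyme, Tbx18 and Wt1 mark the epicardium, Dlx5 and Dlx6 are paired homeobox genes that pattern the neural crest of the pharyngeal arches, and Foxf1 is a forkhead factor of splanchnic mesoderm.

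The study compared control mice with a mouse model of Loeys-Dietz syndrome (LDS), an aortic aneurysm disorder, by single-cell RNA sequencing with 1 library per mouse. According to the labels, 4 CTL mice were Tgfbr1+/+ and 2 LDS mice were Tgfbr1M318R/+, a heterozygous missense change in a TGF-beta receptor, all at 16 weeks of age and, per the methods, female and on a 129SVE background. CTL replicates 1 and 2 also carried Wnt2CRE and EGFP-L10a, a tracer that a Cre recombinase, driven by the Wnt2 promoter per the methods, switches on in cells of the cardiac neural crest (CNC). Such a tracer marks the cells in which its driver was active and their descendants, and the other mice carry neither allele by their labels. The driver is named here as the labels and methods write it. Neural crest tracing usually relies on a Wnt1 driver, so which lineage the GFP values stand for rests on the labels alone. The libraries are told apart by a barcode suffix, 1 to 6, which no source used here ties to a mouse, so LDS and CTL were not compared. Groups of cells were compared within each library, and no p-value was computed for them. Values are printed library by library, or as a median with its range, and each difference with how many libraries share its sign. A difference present in all 6 libraries is present in mice of both genotypes, whichever library is which.

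The 6 libraries held 1863 to 6395 cells each, 18218282 to 38105145 UMIs in all and a median of 5572 to 9838 UMIs per cell. Although the labels list the tracer in 2 mice, 4 libraries held 157 to 263 UMIs of the added GFP sequence and the other two 8 and 6, so results on GFP rest on libraries 1 to 4. Before filtering, libraries 1, 3, 4 and 5 shared 638 to 1101 barcodes in each pair and libraries 2 and 6 shared 244, whereas among the cells kept no pair shared more than 13. Classes of cells were named from marker lists after clustering without the 10 genes, their neighbours and related gene lists. They comprised 12980 fibroblast-like, 10076 vascular smooth muscle cell (VSMC)-like, 566 endothelial-like, 442 leukocyte-like and 54 glia-like cells, and 104 cells stayed unnamed. Subclusters with markers of another class among their leading genes, 750 cells, were set apart. No cluster was mesothelial-like, the cell type that covers the outside of the heart and in which Wt1 is best known, and 6 of 8 mesothelial markers, Msln and Upk3b among them, were at 0 in VSMC-like cells. In fibroblast-like cells 1 of the 8, Bnc1, was at 0, and the 8 summed to 0.664 to 2.86 CPM (UMIs of the genes divided by all UMIs of the cells summed, times 1000000). Class names were rebuilt from markers and may differ from those of the study.

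The DNA-binding parts of 5 members show how the families are related, and they are printed because results below turn on pairs within them. Each stretch is the coding strand, 5′ to 3′, of the GENCODE M21 transcript on mm10. In the 3 bHLH stretches the capitals mark the 7 codons of the basic region that contacts DNA.
Twist1: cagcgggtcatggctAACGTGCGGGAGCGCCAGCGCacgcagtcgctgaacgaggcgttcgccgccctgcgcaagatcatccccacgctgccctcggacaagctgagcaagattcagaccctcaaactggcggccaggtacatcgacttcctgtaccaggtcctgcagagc
Tcf21: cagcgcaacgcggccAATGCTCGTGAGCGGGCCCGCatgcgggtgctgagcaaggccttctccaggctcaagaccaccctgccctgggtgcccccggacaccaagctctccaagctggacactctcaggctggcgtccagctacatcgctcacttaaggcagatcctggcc
Hand2: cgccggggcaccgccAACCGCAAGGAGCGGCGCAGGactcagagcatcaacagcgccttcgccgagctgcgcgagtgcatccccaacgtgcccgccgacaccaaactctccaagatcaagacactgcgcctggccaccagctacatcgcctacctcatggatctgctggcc
They lie in exon 1 of 2 at chr12:33958314-33958484 (plus strand), chr10:22819496-22819666 (minus) and chr8:57322204-57322374 (plus). The bases of the 3 stretches were the same at 60.2% of aligned positions for Tcf21 and Hand2 and at 62.5% for Twist1 with either. In the homeobox stretches of Dlx5 and Dlx6 the capitals mark 6 codons in the recognition helix.
Dlx5: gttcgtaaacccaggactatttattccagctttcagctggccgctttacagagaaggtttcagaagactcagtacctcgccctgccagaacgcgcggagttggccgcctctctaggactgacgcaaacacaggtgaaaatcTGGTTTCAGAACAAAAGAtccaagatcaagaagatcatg
Dlx6: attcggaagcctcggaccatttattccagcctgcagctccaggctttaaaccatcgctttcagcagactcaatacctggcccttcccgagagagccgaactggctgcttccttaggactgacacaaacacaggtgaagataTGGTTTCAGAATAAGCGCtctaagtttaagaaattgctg
Both are split between exons 2 and 3 of 3, from chr6:6878441 to 6879657 (minus) and from chr6:6865140 to 6867088 (plus), and the spans given include the intron. Of the 180 bases 73.3% were the same, and of the 60 codons 51 encoded the same residue. The genes themselves lie close together and are transcribed toward each other, Dlx6 at chr6:6863334-6868568 and Dlx5 at chr6:6877805-6882085.

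Scx lies inside Bop1, a ribosome assembly gene of the opposite strand, Dlx6 inside the antisense gene Dlx6os1, and Hand2 and Tbx18 each overlap a gene of the opposite strand (Hand2os1 and D030062O11Rik). Whether strand was used in counting is not stated, so reads of these pairs may not be fully separated. Bop1 had 24.6 CPM in VSMC-like cells and 12.6 in fibroblast-like cells as medians of libraries, and Hand2os1 was not analysed here. Bop1 thus had the same direction between these classes as Scx, described below. It was also higher, at 18.3 against 11.6 CPM (log2 ratio 0.57, higher in all 6 libraries), in the fibroblast-like subcluster in which Scx was highest, where the log2 ratio of Scx was 5.39. In smooth muscle, where Scx was higher in the VSMC2-like subcluster, Bop1 was lower there in 5 of 6 libraries (-0.53). The part of shared reads in the Scx values was not tested.

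**Figure D1:**
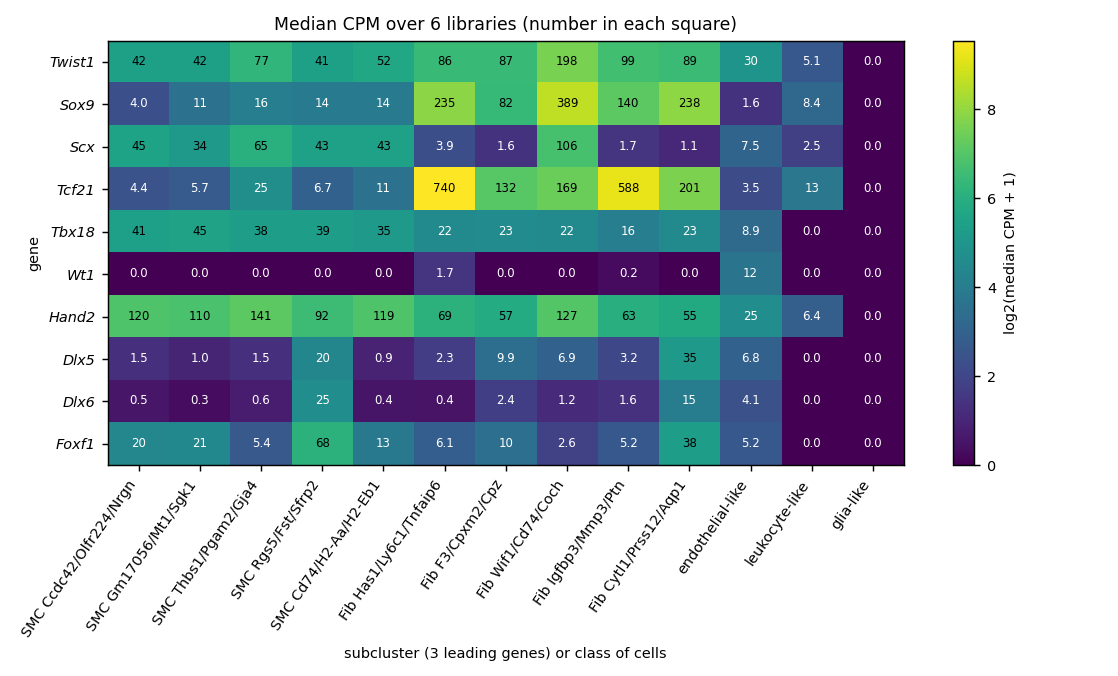
Median CPM over libraries (number in each square; colour, log2 of the median CPM + 1) of the 10 genes in the VSMC-like (SMC) subclusters other than the smallest, the fibroblast-like (Fib) subclusters, each named by its 3 leading genes, and the smaller classes. Tcf21 reaches 740.5 CPM in Has1/Ly6c1/Tnfaip6 fibroblasts, Scx 106.5 in Wif1/Cd74/Coch fibroblasts, and Dlx5, Dlx6 and Foxf1 stand out in the Rgs5/Fst/Sfrp2 VSMC-like and Cytl1/Prss12/Aqp1 fibroblast-like subclusters.

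The first comparison was between the 2 large classes. Tcf21, Sox9, Twist1 and Dlx5 were higher in fibroblast-like than in VSMC-like cells in all 6 libraries, and Scx, Tbx18, Hand2 and Foxf1 were lower in all 6. Of all 8747 genes of at least 10 CPM in either class, 38.2% were higher in all 6 libraries and 34.8% lower, so agreement among the libraries by itself sets no gene apart, and 14.2% were higher in all 6 by a log2 ratio of at least 1. Of the 10 members 7 passed this filter, 3 of them higher and 4 lower, while Dlx5, Dlx6 and Wt1 did not.

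Tcf21 had 289.0, 531.4, 239.7, 494.2, 545.3 and 286.8 CPM in fibroblast-like cells of libraries 1 to 6. It had 3.6, 12.8, 8.33, 12.9, 9.04 and 7.12 CPM in VSMC-like cells. The ranges lay far apart, and the median log2 ratio, computed within each library with a prior of 0.5 UMI, was 5.35 (4.84 to 6.31). A UMI of Tcf21 was found in 54.9% of fibroblast-like cells (95% exact binomial interval 54.0 to 55.7%), 5.01% of VSMC-like cells (4.59 to 5.46%) and 4.53% of leukocyte-like cells (2.79 to 6.90%), where cells had a median of 6084, 7168.5 and 5638 UMIs. Leukocytes should lack the gene, and the share in the VSMC-like class as a whole was close to theirs. The part of free RNA in it was not tested. Thinned to 3000 UMIs per cell, which leaves out 2037 shallower cells, the 3 shares were 45.9%, 2.45% and 3.43%. All such intervals cover counting error only.

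Sox9 showed a similar contrast, with 146.5 to 267.2 CPM in fibroblast-like cells (median 198) and 5.05 to 18.1 in VSMC-like cells (median 8.81). The log2 ratio was 4.62 (3.61 to 4.96). Its share was 48.7% in fibroblast-like cells and 4.84% in VSMC-like cells, the latter again near the 3.17% (1.74 to 5.26%) of leukocyte-like cells. For both genes the share in the whole VSMC-like class thus lay near that of a type that should lack them, while subtypes of the class differed, as given below.

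Twist1 differed less. It had 94.4 to 119.6 CPM in fibroblast-like cells and 40.6 to 59.0 in VSMC-like cells, and the log2 ratio was 1.14 (1.02 to 1.29). The classes did not overlap, and the share in VSMC-like cells, 29.2% (28.3 to 30.1%), was well above the 2.94% of leukocyte-like cells. Twist1 was therefore detected in both classes.

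Hand2, Scx, Tbx18 and Foxf1 formed the opposite group. Hand2 had 110.7 to 127.4 CPM in VSMC-like cells and 61.6 to 79.1 in fibroblast-like cells, with a log2 ratio of fibroblast-like over VSMC-like cells of -0.75 (-0.89 to -0.49). Its levels within a class hardly varied between libraries. Tbx18 had 31.0 to 49.6 CPM in VSMC-like and 12.5 to 30.4 in fibroblast-like cells (log2 ratio -0.93), and Foxf1 had 9.99 to 35.9 and 7.84 to 13.4 (log2 ratio -1.03). For Foxf1 the ranges of the classes overlapped between libraries although each library by itself had the higher level in VSMC-like cells. Scx had 30.4 to 75.4 CPM in VSMC-like and 10.8 to 27.5 in fibroblast-like cells, a log2 ratio of -1.51 (-2.17 to -0.48). In leukocyte-like cells the shares of cells with a UMI of Tbx18, Foxf1 and Scx were 0.453%, 0.226% and 1.58%, against 25.8%, 13.4% and 20.6% in VSMC-like cells.

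Dlx5 had 5.23 to 13.0 CPM in fibroblast-like and 1.66 to 6.47 in VSMC-like cells (log2 ratio 1.27, higher in all 6), while Dlx6 was higher in fibroblast-like cells in 3 libraries and lower in 3 (log2 ratio 0.15). Neither had a UMI in leukocyte-like cells, 0 of 442 cells, an exact interval of up to 0.831%. Low averages of these paired genes hid narrow groups of cells with many more UMIs, described below.

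Wt1 was the member that was nearly absent. It had 1 UMI in VSMC-like cells, 65 in fibroblast-like cells and 47 in the 566 endothelial-like cells, of which 4.24% (2.74 to 6.24%) had a UMI. In endothelial-like cells it stood at 16.4, 13.3, 3.53, 23.5, 10.4 and 0 CPM in libraries 1 to 6, the last with only 10 such cells. Of the 47 UMIs 31 came from library 4, so the level rests mostly on that library. Its antisense neighbour Wt1os had 4 UMIs in all cells.

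**Figure D2:**
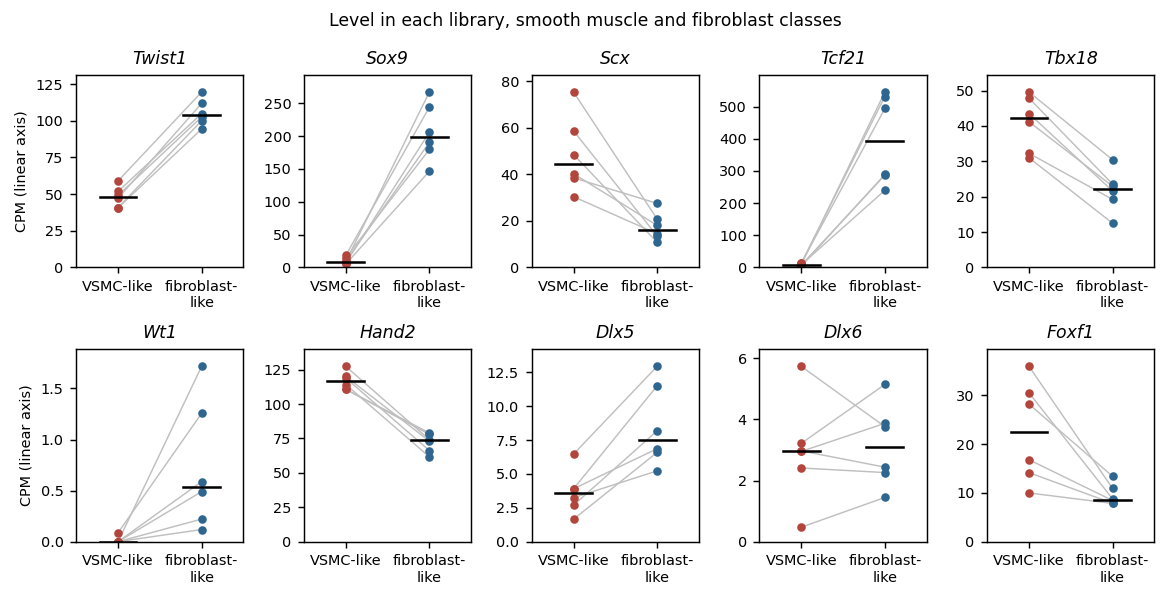
CPM of each gene in VSMC-like and fibroblast-like cells of libraries 1 to 6 (points joined by library; linear axes that differ between genes; bar, median). Tcf21 and Sox9 separate the classes most, Twist1 lies at 40.6 to 59.0 against 94.4 to 119.6 CPM, and Scx, Tbx18 and Hand2 lie higher in VSMC-like cells.

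The next question was whether the members differ between the subtypes of smooth muscle that the study called VSMC2 and VSMC1. VSMC2 was the subcluster with high Enpep and Notch3 and low Tes and Ptprz1. Here each subcluster was scored by its log2 levels of Enpep and Notch3 less those of Tes and Ptprz1. The subcluster with the highest score, 1544 cells led by Thbs1, Pgam2 and Gja4, was called VSMC2-like. VSMC1-like cells were the 7711 cells of the subclusters led by Ccdc42, Olfr224 and Nrgn (4083 cells), by Gm17056, Mt1 and Sgk1 (2716), and by Cd74, H2-Aa and H2-Eb1 (622), and of a small one of 290 cells. A sixth subcluster of 821 cells with high Rgs5 was kept apart, and this assignment was made after the subclusters were seen.

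Twist1, Scx, Tcf21 and Sox9 were higher in VSMC2-like than in VSMC1-like cells in all 6 libraries, and Foxf1 was lower in all 6. Among the 7661 genes that reached 10 CPM in smooth muscle, 11.7% were higher in all 6 libraries and 23.1% lower, with a median log2 ratio of -0.07 over all of them. Of the 6 members that passed this filter 3 were higher and 1 lower, and their median was 0.43. Tcf21 was just under the filter and was also higher.

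Twist1 had 71.6, 81.3, 60.7, 74.1, 89.7 and 80.5 CPM in VSMC2-like cells. In VSMC1-like cells it had 37.3, 40.1, 37.5, 43.8, 53.6 and 46.2. The lowest VSMC2-like value was above the highest VSMC1-like one, and the log2 ratio was 0.78 with the narrow range of 0.69 to 1.02. The Twist1 level of VSMC2-like cells was 72.4% (64.3 to 76.7%) of that in fibroblast-like cells of the same library, and 38.5% in the largest VSMC1-like subcluster.

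Tcf21 had 19.7, 22.4, 32.9, 26.3, 24.5 and 26.2 CPM in VSMC2-like cells. In VSMC1-like cells it had 2.14, 7.81, 4.80, 6.28, 6.16 and 2.57. The groups were clearly apart, with a log2 ratio of 2.40 (1.51 to 3.29), and 12.6% of VSMC2-like cells had a UMI against 3.44% of VSMC1-like cells, which is below the share in leukocyte-like cells. VSMC2-like cells made up 15.3% of VSMC-like cells and held 42.5% of their Tcf21 UMIs.

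VSMC2-like cells also held more fibroblast transcripts. The summed level of the 7 fibroblast markers was 479.1 to 1727 CPM (median 1407) in VSMC2-like cells, against medians of 267, 386.9, 1250 and 324.5 in the 4 VSMC1-like subclusters and 24130 in fibroblast-like cells, and none of the markers was at 0. Relative to fibroblast-like cells of the same library, Tcf21 in VSMC2-like cells stood at 6.07%, the summed markers at 5.65%, Lum at 8.89%, Dcn at 4.50%, Pdgfra at 2.26% and Clec3b at 0.920%. In Cd74/H2-Aa/H2-Eb1 cells, with a similar summed level of 5.22%, Tcf21 stood at 2.27%. In the 932 VSMC2-like and 5789 VSMC1-like cells without a UMI of Lum, Dpt or Pdgfra, Tcf21 kept a log2 ratio of 1.79 and Twist1 of 0.68, both higher in all 6 libraries, while Sox9 fell to 0.12 and Scx to 0.45 and neither was higher in all 6. The part of fibroblast transcripts in the remaining differences was not tested.

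Scx had 86.9, 116.8, 40.7, 44.0, 68.0 and 61.8 CPM in VSMC2-like cells. In VSMC1-like cells it had 57.5, 68.7, 37.5, 29.3, 35.0 and 44.4. The ranges overlapped, since libraries 1 and 2 had more Scx in both groups, yet each library had the higher value in VSMC2-like cells (log2 ratio 0.59, 0.12 to 0.96). Unlike Tcf21, Scx was higher in VSMC2-like cells than in fibroblast-like cells, at 469% of the fibroblast level. Sox9 had 3.12 to 26.3 CPM in VSMC2-like and 2.41 to 14.9 in VSMC1-like cells, which overlap. Its log2 ratio of 1.13 ranged from 0.01 in library 3 to 1.89 in library 1, and it was not higher in all 6 libraries once cells marked as doublets were left out.

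Foxf1 had 5.84, 4.87, 9.29, 8.12, 3.98 and 1.25 CPM in VSMC2-like cells. In VSMC1-like cells it had 23.3, 16.4, 31.1, 30.7, 13.3 and 7.56. Every library showed the lower value in VSMC2-like cells, with a log2 ratio of -1.82 (-2.48 to -1.73). Hand2 was higher in 5 of 6 libraries (log2 ratio 0.26), Tbx18 in 3 of 6 (-0.12), and Dlx5 and Dlx6 in 3 of 6 each, with 22 and 10 UMIs in VSMC2-like cells.

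Transcripts that rise when tissue is dissociated were also higher in VSMC2-like cells, at a summed median of 26680 CPM against 11290 in the largest VSMC1-like subcluster and 26310 in the Gm17056/Mt1/Sgk1 one, which Socs3, Atf3 and Fos also lead. When 1544 cells of each group were matched on their share of these transcripts, the log2 ratios were 0.71 for Twist1, 0.62 for Scx, 2.33 for Tcf21, -1.80 for Foxf1 and 0.87 for Sox9, the last no longer higher in all 6 libraries.

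**Figure D3:**
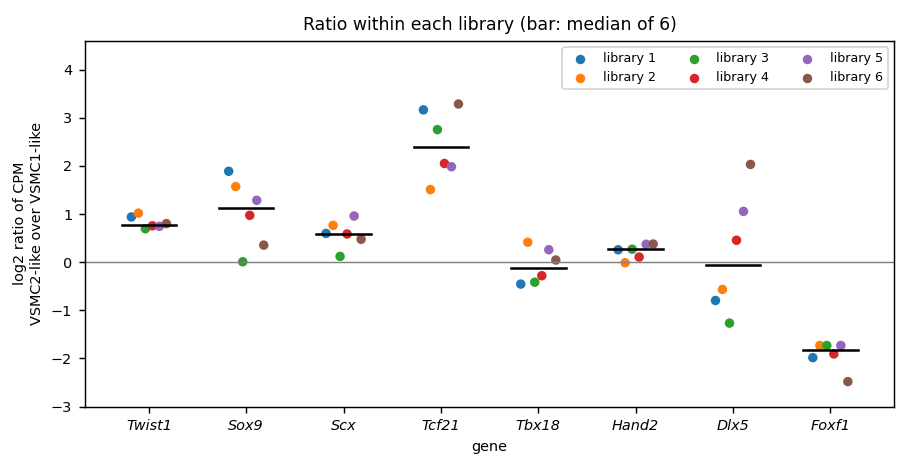
Log2 ratio of CPM (VSMC2-like to VSMC1-like, prior of 0.5 UMI) in libraries 1 to 6 (coloured points; bar, median) for the 8 members with at least 100 UMIs in the comparison, with the line at 0 for equal levels. Twist1, Tcf21, Scx and Sox9 lie above 0, Sox9 at 0.01 in library 3, Foxf1 lies below it in every library, and Dlx5 scatters to both sides.

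Within the smooth muscle class, Dlx5, Dlx6 and Foxf1 were concentrated in the Rgs5-high subcluster, led by Rgs5, Fst and Sfrp2, which was singled out after these values were seen. Its 821 cells were 8.15% of VSMC-like cells and held 54.1% of their Dlx5 UMIs, 75.3% of their Dlx6 UMIs and 26.4% of their Foxf1 UMIs. Dlx6 and Dlx5 were among its 10 leading genes although neither took part in the clustering. Among 11819 genes of at least 1 CPM, 9.67% were higher in Rgs5-high than in other VSMC-like cells in all 6 libraries and 1.8% were so by a log2 ratio of at least 1. Of 9 members that passed, 3 were higher in all 6, each by a log2 ratio of over 2. The filter was on both groups summed, so Dlx6, at a pooled 0.74 CPM in the other VSMC-like cells, passed only through the Rgs5-high cells. Hand2 was lower in all 6 (log2 ratio -0.40), as were 4.49% of genes.

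Dlx5 had 32.0, 14.4, 13.7, 38.0, 18.3 and 21.4 CPM in Rgs5-high cells. In the other VSMC-like cells it had 3.69, 2.05, 1.70, 0.727, 0.844 and 1.92. The groups did not overlap and the log2 ratio was 3.25 (2.75 to 5.56). Dlx6 had 44.3, 18.2, 23.2, 26.3, 9.17 and 25.9 CPM in Rgs5-high cells against 0.0497 to 1.55 in the others, a log2 ratio of 4.94 (3.68 to 6.64). Its antisense partner Dlx6os1 was likewise higher in all 6 libraries, at a median of 17.2 CPM and a log2 ratio of 4.77. Foxf1 had 89.2, 43.2, 122.4, 74.1, 62.1 and 42.7 CPM in Rgs5-high cells. In the others it had 21.6, 14, 28.2, 26.4, 11.8 and 6.26, again without overlap (log2 ratio 2.08, 1.49 to 2.75). Of the Rgs5-high cells 13.2% had a UMI of Dlx5 and 14% of Dlx6.

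The Rgs5-high subcluster had 2780 to 6751 CPM (median 3896) of the 7 pericyte markers summed, against medians of 188.6 to 380.7 in the other subclusters. Rgs5, by whose level the subcluster was picked, is in this sum, so the sum is no independent support for a pericyte identity. Of 6 pericyte markers that passed the filter 3 were higher in all 6 libraries, with log2 ratios of 0.02 to 5.13 over the list. None of the 7 was at 0. The 7 fibroblast markers summed to 587.2 to 1894 CPM, and 3 of them were higher than in the other VSMC-like cells in all 6 libraries. All 7 smooth muscle markers were lower in it in all 6 libraries, by a log2 ratio of 0.07 to 0.40. Of 22 neural crest genes listed with the members, 12 passed the filter and 7 were higher in all 6 libraries, with a median log2 ratio of 0.76 against 0.05 over all genes. Tfap2b, an AP-2 factor of neural crest development, had 18.3 against 0.155 CPM (log2 ratio 6.18), Prrx2 87.4 against 3.20 (4.6), Msx2 14.2 against 0.596 (4.26) and the endothelin receptor Ednra 19.3 against 6.23 (1.75). Tfap2b and Msx2, with medians under 1 CPM in the other cells, passed through the Rgs5-high cells. The count and median of the list thus include genes admitted by the group where they were high. Of 16 second heart field genes 9 passed, 1 higher and 1 lower in all 6, with a median log2 ratio of 0.09, near that over all genes. The lower one was Gata4 (-1.71), the smallest ratio of the list. Of 9 Hox genes that passed, 5 were higher in all 6 and none lower in all 6, Hoxb2 by 0.67 and Hoxa4 by 1.06.

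Among fibroblast-like cells the same 3 genes were concentrated in the subcluster led by Cytl1, Prss12 and Aqp1, called Cytl1-high here and also singled out after the values were seen. Its 1110 cells were 8.55% of fibroblast-like cells and held 36.1% of Dlx5, 58.1% of Dlx6 and 37.7% of Foxf1 UMIs of the class. Of 12681 genes of at least 1 CPM, 5.33% were higher than in other fibroblast-like cells in all 6 libraries, 0.584% by a log2 ratio of at least 1, and 8.85% were lower. Of 9 members that passed, Dlx5, Dlx6, Foxf1 and Sox9 were higher and Twist1, Scx and Tcf21 lower in all 6.

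Dlx5 had 31.0, 12.8, 38.6, 38.7, 11.5 and 60.8 CPM in Cytl1-high cells and 4.12 to 9.58 in the other fibroblast-like cells, with no overlap (log2 ratio 2.22, 0.86 to 3.21). Dlx6 had 12.7, 9.38, 31.4, 18.2, 2.87 and 45.3 against 0.884 to 2.10 (log2 ratio 3.44, 1.04 to 4.96). Foxf1 had 24.0, 37.5, 55.6, 38.7, 20.1 and 48.1 against 4.02 to 11.4 (log2 ratio 2.79, 1.06 to 3.54). Library 5 was the lowest of the 6 for all 3 genes, and library 6 the highest for both Dlx genes. Tcf21 also varied between libraries in Cytl1-high cells, from 42.4 CPM in library 6 and 56.3 in library 3 to 507.1 in library 5, and its log2 ratio of -1.20 ran from -2.87 to -0.11. Tfap2b was the neural crest gene with the largest ratio there too, 21.3 against 0.390 CPM (log2 ratio 5.02).

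The subclusters depended on the clustering, Cytl1-high the most. In clusters of log-normalized counts without integration, the subcluster with the highest Cytl1 was led by Spp1, Ucma and 1500015O10Rik. It shared 44 cells (3.96%) with the Cytl1-high one, and Twist1, Scx, Dlx6 and Foxf1 changed direction in it. The subcluster with the highest Rgs5 had 279 cells there and held 231 (28.1%) of the 821 Rgs5-high cells. The largest part of the 821, 32.5%, fell in a subcluster led by Cd74. For Wif1-high cells 784 of 1610 (48.7%) were shared, and for VSMC2-like cells 1292 of 1544 (83.7%). A comparison of cells with a UMI of Prss12 against cells of the same class without one was added after the data were seen. Prss12 was picked because it leads in both the Rgs5-high and the Cytl1-high subcluster, so the comparison describes the same cells in another way and is no independent support. In fibroblast-like cells (2291 with and 10689 without) the log2 ratios were 2.02 for Dlx5, 3.63 for Dlx6 and 1.35 for Foxf1, each higher in all 6 libraries, as were 7.47% of genes, while Tcf21 (-2.10), Sox9 (-0.78), Hand2 (-0.51) and Twist1 (-0.18) were lower in all 6, as were 16.2%. Sox9 thus had opposite signs in the Cytl1-high subcluster and in cells with Prss12. In VSMC-like cells (196 with and 9880 without) they were 3.14 for Dlx5, 4.32 for Dlx6 and 1.78 for Foxf1, each higher in all 6 libraries, as were 4.59% of genes.

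**Figure D4:**
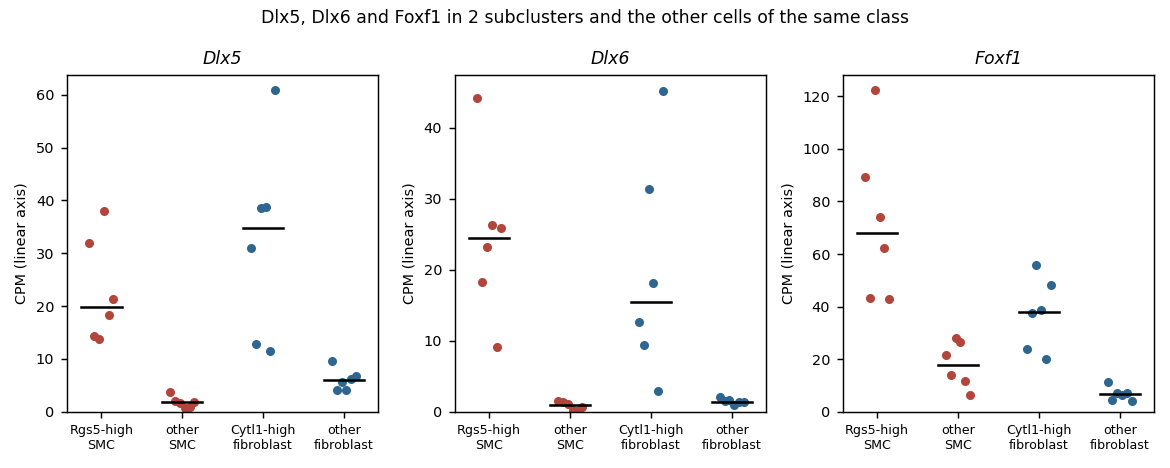
CPM of Dlx5, Dlx6 and Foxf1 in libraries 1 to 6 (points; linear axes; bar, median) for Rgs5-high against other VSMC-like cells (SMC) and Cytl1-high against other fibroblast-like cells. Dlx5 lies at 13.7 to 38.0 CPM in Rgs5-high cells and 0.727 to 3.69 in the others, and no gene's groups overlap in either class.

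Scx had its own place among the fibroblast-like cells, the subcluster led by Wif1, Cd74 and Coch (Wif1-high). Its 1610 cells were 12.4% of the class and held 87.4% of its Scx UMIs. Scx had 148.5, 101.1, 151.7, 78.2, 111.8 and 44.3 CPM in Wif1-high cells. In the other fibroblast-like cells it had 2.63, 2.20, 4.24, 1.95, 2.11 and 3.84. The log2 ratio was 5.39 (3.49 to 5.76), so the low Scx level of the fibroblast class was an average over a minority with much Scx and a majority with little. The Wif1-high level also lay above that of VSMC-like cells of the same library in 5 of 6 libraries, the exception being library 6 with 44.3 against 48.6 CPM.

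Twist1 (151.3 to 218.0 CPM against 82.3 to 102.8), Sox9 (340.1 to 470.1 against 106.1 to 232.6) and Hand2 (90.6 to 154.2 against 58.1 to 66.5) were also higher in Wif1-high cells in all 6 libraries without overlap, each by a log2 ratio of 1.02 to 1.11. Tcf21 (log2 ratio -1.28) and Foxf1 (-1.85) were lower in all 6. Markers moved with them: 4 of 7 fibroblast markers were lower and 1 higher in all 6, with a median log2 ratio of -1.62, although the 7 summed to 20240 to 29120 CPM against 23350 to 25680 in the whole class. Of 7 glia markers that passed, 2 were higher in all 6, S100b (2.28) and Gpm6b (0.84), and of 4 endothelial ones 1, Emcn (4.35, 10.6 against 0.765 CPM). Of 23 dissociation genes 8 were higher and 1 lower in all 6. Their part in the members' values was not tested. Of 12681 genes, 13.1% were higher and 15.8% lower in all 6, and 4.51% were higher by a log2 ratio of at least 1, so 4 of 9 members higher by over 1 stands beside that share.

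In the list of tendon, cartilage and valve genes 20 of 23 passed the filter, of which 8 were higher and 3 lower in Wif1-high cells in all 6 libraries. Chad and Comp, cartilage matrix proteins, had 362.5 against 19.8 CPM (log2 ratio 4.27) and 1373 against 282.2 (2.13). Cilp2 had 70.0 against 0.436 (6.98), and Acan, the cartilage proteoglycan, 4.55 against 0 as medians. With a median under 1 CPM in the other cells, Cilp2 passed the filter through the Wif1-high cells. The tendon membrane protein Tnmd was lower in all 6 (log2 ratio -3.0), as were Pax1 and Pax9. All 9 Hox genes that passed were lower in all 6 libraries, with a median log2 ratio of -3.15 against -0.02 over all genes.

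Summed over the 34 Hox genes in the matrix, the level was 8.27 to 20.4 CPM in Wif1-high and 41.1 to 84.2 in Has1/Ly6c1/Tnfaip6 fibroblast-like cells. In VSMC2-like cells it was 27.0 to 47.2 CPM and in the largest VSMC1-like subcluster 108.0 to 128.5. Both cell groups in which Twist1 and Scx were higher in all 6 libraries thus had the lowest summed Hox level of their class. In Rgs5-high cells the sum was 132.6 to 209.0 CPM.

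The other fibroblast-like subclusters also differed in members. Tcf21 had 376.9 to 853.0 CPM (median 740.5) in the cells led by Has1, Ly6c1 and Tnfaip6 and 442.6 to 896.2 (587.6) in those led by Igfbp3, Mmp3 and Ptn. It had 81.8 to 333.8 (132.3) in those led by F3, Cpxm2 and Cpz. The ranges of the first pair overlapped and both lay above the last. Sox9 was 168.5 to 289.2 CPM, 112.4 to 185.6 and 38.2 to 108.0 in the same order. Dlx5 in F3/Cpxm2/Cpz cells was 7.39 to 13.6 CPM, above the 0.807 to 4.21 of Has1/Ly6c1/Tnfaip6 cells. Tbx18 was the most even member, with medians of 15.8 to 23.2 CPM over the 5 fibroblast-like and 34.8 to 44.6 over the 6 VSMC-like subclusters, and its ranges over libraries overlapped within each class.

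Several members were found in the same cell more or less often than their separate shares give. The expected number was the product of the shares within strata of library and depth, and no p is given since sparse counts of 1 cell share its depth. Dlx5 and Dlx6 were found together in 61 VSMC-like cells, 11.5 times the expected number, and in 88 fibroblast-like cells, 8.30 times. With the subcluster added to the strata these ratios were 2.83 and 3.32. Dlx6 and Foxf1 were together in 56 fibroblast-like cells (4.90 times, 2.02 with the subcluster) and 76 VSMC-like cells (2.91 and 1.4). Pairs below the expected number involved Tcf21 or Hand2 among others. In fibroblast-like cells Tcf21 occurred with Dlx6 in 22 cells (0.216 times, 0.312 with the subcluster) and with Dlx5 in 98 cells (0.356 and 0.474), and with Scx in 207 cells (0.527 and 0.773). Hand2 and Dlx6 were together in 32 fibroblast-like cells (0.433) and 40 VSMC-like cells (0.453).

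Over the 14 classes and subclusters, Pearson's r of log2(CPM + 1) gives the genes most alike in pattern. These points share libraries and depth, so r is a description only. Among the members themselves Hand2 and Tbx18 were most alike (r = 0.966), then Dlx5 and Dlx6 (0.923) and Sox9 and Tcf21 (0.914), and Scx and Tcf21 were least alike (-0.612). Among all genes of at least 10 CPM in 1 group, Dlx6 was closest to Dlx6os1 (0.970), then Dlx5 and Pax9. Dlx5 was closest to Dlx6, then Dlx6os1 and Lnx1. Scx was closest to Tesc (0.968), Wnt16 and Acan, and Tcf21 to Bicc1 (0.968), the cytokine gene Il33 and Olfml3. Sox9 was closest to Aox3, the proteoglycan gene Epyc (both 0.957) and Lum, Twist1 to Chst14 (0.968), Gm6277 and Upp2, Hand2 to Tbx18, 2810457G06Rik and Gstk1, and Tbx18 to Mical2, Urgcp and Efna5 (0.979 to 0.980). Foxf1 was closest to Tmem18 (0.879), Hoxb3 and Hoxb2, and Wt1 to Hoxd9 (0.997), Hoxd3os1 and Gkn3, on 116 UMIs. The pairs Dlx5 with Dlx6 and Dlx6 with Dlx6os1 stayed among the 3 closest in 10 of 10 alternative settings, and Hand2 with Tbx18 in 7. Hand2 with Tbx18 was kept neither without integration nor after thinning.

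Because Hand2 and Tbx18 had the most alike pattern, the 250 bases before their start in RefSeq (build GRCm38.p6) are shown, with each E-box, CANNTG, in capitals (the motif reads as CANNTG on both strands). The Hand2 stretch is chr8:57320733-57320982 (plus strand) and that of Tbx18 is chr9:87731261-87731510 (minus).
Hand2: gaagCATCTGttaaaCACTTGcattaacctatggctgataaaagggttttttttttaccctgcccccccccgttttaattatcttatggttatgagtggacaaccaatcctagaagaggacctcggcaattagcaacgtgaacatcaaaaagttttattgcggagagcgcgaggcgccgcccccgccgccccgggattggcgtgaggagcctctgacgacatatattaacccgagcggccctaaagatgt
Tbx18: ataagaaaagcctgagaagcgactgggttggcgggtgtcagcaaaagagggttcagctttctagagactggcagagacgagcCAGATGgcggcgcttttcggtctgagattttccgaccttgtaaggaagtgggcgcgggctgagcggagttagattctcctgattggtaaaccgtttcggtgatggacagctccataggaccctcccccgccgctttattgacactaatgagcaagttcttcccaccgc
The motif occurred 2 times before Hand2, 1 time before Tbx18 and not in the windows of Twist1 and Tcf21, the 4 members matched in the promoter table. Of 32851 promoter windows of this length 66.2% hold it, so its presence sets neither gene apart.

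The genes next to the members are given by their own values. Foxc2, Mthfsd and Foxl1, the neighbours of Foxf1, had medians of 51.5, 15.4 and 2.93 CPM in VSMC-like cells, and every library had less Foxc2 and Mthfsd in the VSMC2-like subcluster (log2 ratios -0.46 and -0.85). Foxl1 was higher in Cytl1-high cells in all 6 (2.36), as Foxf1 was. Hdac9, beside Twist1, had 23.3 CPM in VSMC-like and 1.56 in fibroblast-like cells (log2 ratio -3.93), the direction opposite to Twist1. The long noncoding gene 2610035D17Rik, near Sox9, was higher in fibroblast-like cells in all 6 libraries (log2 ratio 1.94) with 521 UMIs in all. Scrg1, near Hand2, had 22 UMIs, Gm10825, near Tcf21, 2, and Ferd3l, near Twist1, none.

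The members were also set beside fixed lists of related genes, whose levels in CPM are not per length and are given by class only. In VSMC2-like against VSMC1-like cells, 11.7% of the 7661 genes of at least 10 CPM were higher and 23.1% lower in all 6 libraries. These shares stand beside the counts of each list. Of 18 other bHLH genes and their inhibitors 11 passed the 10 CPM filter in VSMC-like cells, and in VSMC2-like against VSMC1-like cells 6 of them were higher in every library and none lower. Hes1, a Notch target, and Bhlhe40 had the largest log2 ratios (2.47 and 1.65), and Id4 and Tcf12 the smallest (-0.13 and -0.09, each higher in 2 of 6 libraries). Id3 and Id2, inhibitors that dimerize with bHLH factors without binding DNA, had medians of 1314 and 242.7 CPM in VSMC-like cells. In fibroblast-like cells Id3 had 2022 and Hes1 314.7 CPM.

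Of 16 second heart field genes 6 passed, and in the same comparison 3 were higher and 2 lower in every library. Gata4 (log2 ratio 1.68), Tbx20 (1.34) and Mef2c (0.17) were higher, and Foxc2 (-0.46) and Gata6 (-0.35) lower. Mef2c had 352.1 CPM in VSMC-like and 90.1 in fibroblast-like cells, Foxc1 134.3 in VSMC-like and Gata6 176.2 in fibroblast-like cells. Of 22 neural crest genes 4 passed, of which Msx1 (2.30), Prrx1 (1.21) and Zeb2 (0.84) were higher in all 6 and Ets1 (0.05) in 3. Prrx1 had 69.1 CPM in VSMC-like and 145.3 in fibroblast-like cells, and Zeb2 53.5 and 154.6. All 3 genes of the tendon, cartilage and valve list that passed were higher in all 6, Comp (2.50), Sox6 (1.48) and Egr1 (1.03), the last also a gene that responds to dissociation. Egr1 had 813.4 CPM in VSMC-like and 1840 in fibroblast-like cells, and Comp 467.4 in the latter.

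The epicardial and Hox genes that passed were lower in VSMC2-like cells. Both epicardial genes that passed, the keratin Krt18 (-3.49) and Sema3d (-2.79), were lower in all 6 libraries, at 33.5 and 49.4 CPM in VSMC-like cells. In fibroblast-like cells Aldh1a1, which did not pass, had 110.9 CPM and Sema3d 73.5. Of 5 forkhead and T-box genes that passed, Tbx2 (2.16) was higher and Foxp2 (-0.53) and Foxp1 (-0.30) lower in all 6, with Foxs1 (0.12) higher in 5. Foxp1 had 162.6 CPM in VSMC-like and 124.3 in fibroblast-like cells, and Foxp2 75.0 and 96.0. The 3 Hox genes that passed, Hoxa3 (-2.18), Hoxb2 (-1.68) and Hoxb3 (-1.63), were lower in all 6. Of 23 dissociation genes 20 were higher in all 6 in the same comparison, with Ier3 (1.41) and Ier2 (1.32) the largest and Klf6 (-0.13) and Hsp90aa1 (-0.01) the smallest. The ratios of the lists are not from cells matched on these transcripts.

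The tracer was read last. Within libraries 1 to 4, a GFP UMI was found in 415 VSMC-like and 242 fibroblast-like cells, and in 3 of 306 leukocyte-like cells (0.980%, 0.203 to 2.84%). Of endothelial-like cells 24 of 470 had one (5.11%, 3.30 to 7.50%), at 0%, 0%, 5.47% and 6.67% in libraries 1 to 4. A cell without a GFP UMI cannot be called untraced, since the tracer gave under 1 UMI per cell. The share of VSMC2-like cells with GFP was 0.571%, 3.51%, 2.45% and 3.49% in libraries 1 to 4. In the largest VSMC1-like subcluster it was 10.2%, 16.2%, 3.04% and 4.81%, higher in each library. After thinning it was higher in 3 of 4, the exception being library 3 with 1.18% against 2.01% in VSMC2-like cells. In Rgs5-high cells it was 11.25%, 9.89%, 2.03% and 5.52%, on 18, 9, 3 and 10 cells, higher than in VSMC2-like cells in all but library 3. Among fibroblast-like cells the share was 4.80%, 2.31%, 2.29% and 4.62% in F3/Cpxm2/Cpz cells and 2.79%, 2.24%, 1.31% and 0.932% in Has1/Ly6c1/Tnfaip6 cells, lower in each library and also after thinning. In Cytl1-high cells it ranged from 1.62 to 5.82%, in Wif1-high cells from 1.28 to 2.55% and in Igfbp3/Mmp3/Ptn cells from 0.923 to 1.60%, on 3 to 13 cells with GFP per library, or 1 in Wif1-high cells of library 1.

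In VSMC-like cells no member showed a clear difference by tracer. Scx alone had 1 direction in all 4 libraries, lower in cells with GFP, with a median log2 ratio of -0.15 and a lowest of -0.78, while in library 4 it had 30.4 CPM in both groups. Here 10.6% of 7716 genes were lower and 7.67% higher in all 4. In fibroblast-like cells Tcf21 alone had 1 direction, with 8.69% of 8099 genes lower and 7.04% higher in all 4. Tcf21 had 83.5, 181.0, 118.6 and 263.8 CPM in the cells with GFP. In those without it had 299.3, 542.2, 242.4 and 500.9. Every library was lower with GFP, and the log2 ratio was -1.31 (-1.84 to -0.93).

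The share of cells with a Tcf21 UMI differed less than the level: 42.6% (36.3 to 49.1%) of cells with GFP against 54.1% (53.1 to 55.1%) without, and 32.2% against 45.1% after thinning. In library 3 the unthinned share went the other way, 46.2% against 41.8%, at median depths of 8018 and 6235.5 UMIs. GFP cells were unevenly spread over the subclusters, and from their make-up by subcluster and library a share of 46.0% would be expected. Within Has1/Ly6c1/Tnfaip6 cells Tcf21 had 337.8 CPM in 54 cells with GFP against 677.9 in 3656 without, with shares of 70.4% (56.4 to 82.0%) and 75.4%. Within F3/Cpxm2/Cpz cells it had 101.2 against 168.6 CPM, with shares of 35.5% and 35.0%. These values are sums over libraries 1 to 4, which differ in their Tcf21 level and in their share of cells with GFP, and no difference within libraries was computed by subcluster. Hand2 had a UMI in 43.0% of fibroblast-like cells with GFP against 32.3% expected from the same make-up, although its CPM was higher in 3 of 4 libraries only, and its thinned share was 20.9% (15.8 to 26.7%) against 18.3%. Cells with GFP were deeper, with medians of 7622 and 6088 UMIs.

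**Figure D5:**
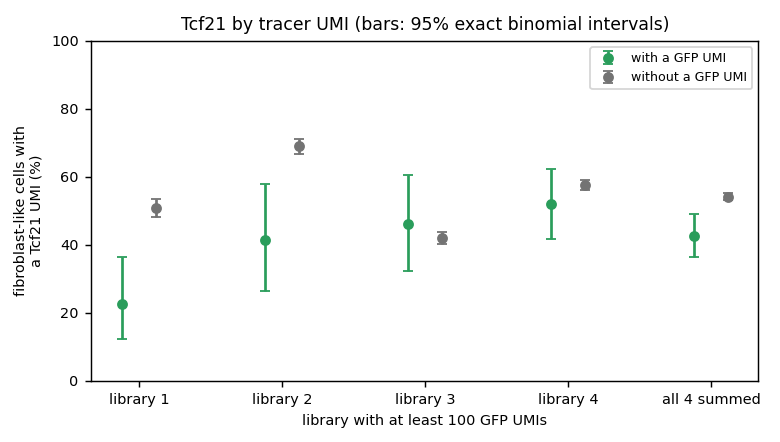
Percent of fibroblast-like cells with a Tcf21 UMI among those with and without a GFP UMI, in libraries 1 to 4 and in all 4 summed (points; bars, 95% exact binomial intervals, counting error only). Summed, the share is 42.6% with GFP against 54.1% without, while in library 3 it is 46.2% against 41.8%.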

How the data were processed

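Single-cell suspensions of 6 aortas, from the root to the arch, were sorted for cells with a DNA stain and no propidium iodide and made into 10x 3' libraries, 1 per mouse. The authors deposited raw counts (UMIs per gene and barcode, 1 matrix for all libraries, 30716 barcodes) on mm10. The submitters' processing notes name Cell Ranger 6 and the matrix header 4.0.0, and whether strand or introns were used is not given in the sources used here. No per-sample column was left unused.

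Cells were filtered as the report states. Libraries were normalized with SCTransform and integrated by reciprocal PCA in Seurat 5.3.0 (30 components, 3000 variable genes), with 192 genes left out, the members among them. Classes were clustered at resolution 0.25. Subclusters of each large class were taken at 0.15, the lowest resolution tried that gave at least 6 subclusters of 1% of the cells or more. Doublets were marked per library with scrublet in scanpy 1.11.5 (in libraries 2 and 5 as the highest 5% of scores), kept in the values given, and left out as an alternative. CPM sums UMIs over cells of a library. Log2 ratios use a prior of 0.5 UMI, over genes of at least 10 CPM, or at least 1 CPM for single subclusters. The 1 CPM filter was on both groups summed, so a gene can pass through the group where it is high. Samples of UMIs thinned to 3000 per cell were drawn with a fixed seed. Shares have 95% exact binomial intervals.

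LDS and CTL were not compared, since the libraries are not tied to mice. Groups of cells were compared within each library by direction and size, and no p-value was computed, as the design set out. The members and lists were chosen with earlier results of these data known, and the VSMC2-like assignment, the Rgs5-high, Cytl1-high and Wif1-high comparisons and the Prss12 comparison after the data were seen. Genes were named by rule: the members, their neighbours with a UMI, the 3 genes most alike to each member, the 2 highest per class and the 2 largest and smallest VSMC2-like ratios of each list, and the leading genes of subclusters. Scripts were tested on simulated data. The sequence of 1 member and the leading genes of 1 subcluster are not reported here.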

Additional observations from a re-analysis of the deposited data

Results flagged for a closer look

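Scx stood apart in 1 library of the Rgs5/Fst/Sfrp2 subcluster: library 4 had 12.7 CPM and the other 5 had 39.7 to 54.0. This was the 1 value far from the others among 50 groups of 6 libraries examined, and chance marks about 1 in 20 such groups. Library 4 also had the lowest Scx of all VSMC-like cells, 30.4 CPM.

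The subclusters set apart for markers of another class also held the members, 9 of which had over 3 UMIs in each. In the 190 cells led by Cygb, Clec3b and Pi16, 63.7% were marked as doublets, and in the 543 cells led by Myh11, Cnn1 and Acta2, 33.9%. Pooled levels were 151 and 178 CPM for Tcf21, 66.6 and 98.5 for Sox9, and 33.3 and 41.3 for Scx. These cells enter none of the comparisons above.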

How the results depend on the processing

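Of 1317 values recomputed under alternatives, 1249 moved by less than the limit set for each. The limit was a fixed factor for counts and the standard deviation over libraries for the other values. A change of sign was marked only where all libraries had shared the main direction, so values near 0 could change sign within the limit. Tbx18 in VSMC2-like over VSMC1-like cells, for example, ran from -0.28 to 0.04 when 1 library was left out. Members higher in VSMC2-like cells fell from 4 to 2 in cells without a UMI of Lum, Dpt or Pdgfra, and members lower rose from 1 to 2 with pooled sums. In the Rgs5-high comparison the number lower rose from 1 to 2, and in the Cytl1-high comparison it fell from 3 to 1, both without integration and with mixed subclusters kept. Without integration the Cytl1-high ratios of Twist1 (0.65), Scx (3.39), Dlx6 (-0.30) and Foxf1 (-1.64) reversed, with 44 cells shared, and members lower in Wif1-high cells rose from 2 to 4. By tracer, members higher in VSMC-like cells rose from 0 to 1 and members lower fell from 1 to 0 after thinning. Leaving out 1 library gave 0 to 1 higher and 1 to 3 lower in VSMC-like cells, and 0 to 1 higher and 1 to 2 lower in fibroblast-like cells, the counts of members lower rising without library 3 and, in VSMC-like cells, library 4. Of the 30 most alike genes 8 remained without integration, 7 after thinning and 12 to 24 without 1 library (fewest without library 3, 4 or 5). Pairs of members at 2 or more times the expected number fell from 8 to 2 after thinning and were 6 to 8 without 1 library. Only pairs with an expected number of at least 5 were counted. Thinning lowers expected numbers, so a pair can leave this count whatever its ratio. Related genes tested rose from 26 to 49 with a minimum of 1 UMI. The causes were not tested. No paired analysis was possible because CTL and LDS could not be compared, the barcodes carrying no replicate number of a mouse. Groups of cells were compared within each library throughout. Depth limits Wt1 (116 UMIs) and Dlx6 most.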
